A study of Rattus norvegicus with 8 samples.

Results

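Semaphorins, ephrins, slits, netrins and their receptors were followed in the outflow vein of a rat arteriovenous fistula (AVF) treated with β-aminopropionitrile (BAPN) or vehicle. Members were taken by gene name alone. All names beginning with Sema3 to Sema7, Plxna to Plxnd, Epha, Ephb, Efna or Efnb followed by a number, Ntn followed by a number or Unc5 were included, together with Nrp1, Nrp2 and the Slit and Robo genes. The rule took 69 of the 32623 genes listed, and 57 of them had the 80 or more reads over the 8 libraries that were required for testing. It also took Unc50, an inner nuclear membrane protein, and Unc5cl, neither of which is a netrin receptor.

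Bulk RNA sequencing of 8 Sprague Dawley rats compared BAPN and vehicle scaffolds, with 1 library from the outflow vein of each rat at 21 days. All rats had an epigastric vein joined to the side of the femoral artery, and all carried a PLA and PLGA nanofiber wrap around the vein near the anastomosis, so the vehicle group was operated and wrapped as well. The wrap was loaded with BAPN, an irreversible inhibitor of lysyl oxidases, the enzymes that link collagen and elastin fibres, in 4 rats (BAPN 1 to 3 female, BAPN 4 male). It was left unloaded in the other 4 (Vehicle 1 and 2 female, Vehicle 3 and 4 male). No unoperated vein was analysed here, and the ages of the rats were not given in the sources used here. The question asked of these genes was whether RNA levels of guidance ligands and receptors differed between BAPN and vehicle veins.

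These families were first described as guidance cues for growing axons, and many of them also act in blood vessels. Semaphorins signal through plexins, with neuropilins as co-receptors for most secreted class 3 members, while neuropilins also bind vascular endothelial growth factors. Ephrins are held at the cell surface and bind Eph receptor tyrosine kinases on neighbouring cells, so that both cells can receive a signal. Ephrin-B2 marks arterial and EphB4 venous endothelium. Slits are secreted ligands of Robo receptors, and netrins are laminin-related secreted proteins that bind DCC, neogenin or UNC5 receptors.

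Ephrin-B2, its receptor EphB4 and the receptors EphB3 and EphA2 were among the genes with lower RNA in BAPN-treated veins, and the 250 bases directly before their RefSeq start (build GRCr8, written 5′ to 3′ on the gene's strand) are shown so that the promoters of a ligand, of 2 EphB receptors and of an EphA receptor can be read side by side. Capitals mark GGGCGG or its reverse complement CCGCCC, the letters of a GC box. The Efnb2 promoter (chr16:87484965-87485214, strand +), of the ligand, held none of these. The Ephb4 (chr12:24988389-24988638, strand -) and Ephb3 (chr11:93363776-93364025, strand -) promoters held 3 each and the Epha2 promoter (chr5:158888379-158888628, strand +) held 1.

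Efnb2: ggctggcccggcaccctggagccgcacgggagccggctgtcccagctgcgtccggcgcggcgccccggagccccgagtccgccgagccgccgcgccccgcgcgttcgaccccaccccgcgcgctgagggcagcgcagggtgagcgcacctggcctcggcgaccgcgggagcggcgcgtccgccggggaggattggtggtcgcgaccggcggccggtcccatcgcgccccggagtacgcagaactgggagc
Ephb4: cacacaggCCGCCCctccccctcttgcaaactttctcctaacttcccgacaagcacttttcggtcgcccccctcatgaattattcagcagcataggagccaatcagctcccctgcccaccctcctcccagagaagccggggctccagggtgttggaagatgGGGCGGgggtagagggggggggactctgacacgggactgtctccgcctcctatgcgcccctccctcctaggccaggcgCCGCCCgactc
Ephb3: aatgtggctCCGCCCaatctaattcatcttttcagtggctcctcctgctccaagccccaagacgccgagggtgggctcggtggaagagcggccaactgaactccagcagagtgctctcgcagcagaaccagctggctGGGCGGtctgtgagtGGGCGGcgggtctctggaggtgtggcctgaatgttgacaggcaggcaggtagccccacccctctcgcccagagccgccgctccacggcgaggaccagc
Epha2: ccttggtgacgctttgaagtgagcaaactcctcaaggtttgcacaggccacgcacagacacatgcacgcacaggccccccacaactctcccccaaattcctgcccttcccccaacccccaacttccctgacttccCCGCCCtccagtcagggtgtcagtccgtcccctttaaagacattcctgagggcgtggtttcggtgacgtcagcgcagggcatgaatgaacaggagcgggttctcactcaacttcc

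RefSeq promoters were matched by symbol for 54 of the 69 members, including 14 of the 18 members called lower (15 promoters, as Robo1 has a pair). GGGCGG was present, on either strand, in 7 of these 15 promoters (46.7%), in 24 of 46 promoters of tested members (52.2%) and in 30.5% of the 33469 promoters in the table. TGGGAA, the core letters bound by RBPJ, was found in 20% of the called promoters and in 22.1% of all promoters. GGAATG, bound by TEAD factors, was in 6.67% and 12.1%, and TGACTCA, the AP-1 element, in 0% (0 of 15) and 4.05%. These are matches of letters within 250 bases and no measurement of binding.

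Library totals were 45039451 to 52241007 reads in the BAPN group and 19548203 to 22442050 in the vehicle group, so 1 count per 1000000 (CPM, scaled with TMM library sizes) stood for 43.5 to 50.8 reads in a BAPN library and 20.3 to 24 in a vehicle library. Every BAPN library was thus at least 2.01 times as deep as any vehicle library. Each value below is CPM, with the mean ± SD over n = 4 rats per group, and CPM was not compared between genes because it carries no correction for length. The log2 fold change is BAPN against vehicle, so negative values are lower with BAPN, and FDR is the Benjamini-Hochberg adjusted p of edgeR's quasi-likelihood test over all tested genes. The log2 fold change is edgeR's, while the SE beside it comes from a separate limma-voom fit of the same comparison. A gene is called at an FDR below 0.05, and the p-values weigh the difference between groups against the spread between rats. When all libraries were thinned to the smallest total, 18 members were called, 17 of which were called at full depth.

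With BAPN, 18 of the 57 tested members were called lower (31.6%) and 0 were called higher by edgeR. At an unadjusted p below 0.05 there were 27 members, of which 0 were higher, and DESeq2 also called 0 higher. These were 47.4% of the members, against 31.6% of all tested genes at such a p in either direction and 16.1% that were lower. Over all 14930 tested genes, 1811 (12.1%) were called in either direction and 979 (6.56%) were called lower. The median log2 fold change was -0.61 over the members and 0.02 over the other tested genes, and 47 members were lower and 10 higher with BAPN before any threshold. The values of the 4 BAPN rats were all below those of the 4 vehicle rats for 19 members (33.3%), against 10.3% of all genes tested. DESeq2 called 24 members lower, including these 18, against 12.5% of all genes called lower by that tool. Of the 18, 14 had a log2 fold change below -1, and FDR values lay between 0.0145 and 0.0411. In bulk RNA, fewer cells of a type and less RNA per cell cannot be told apart.

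**Figure D1:**
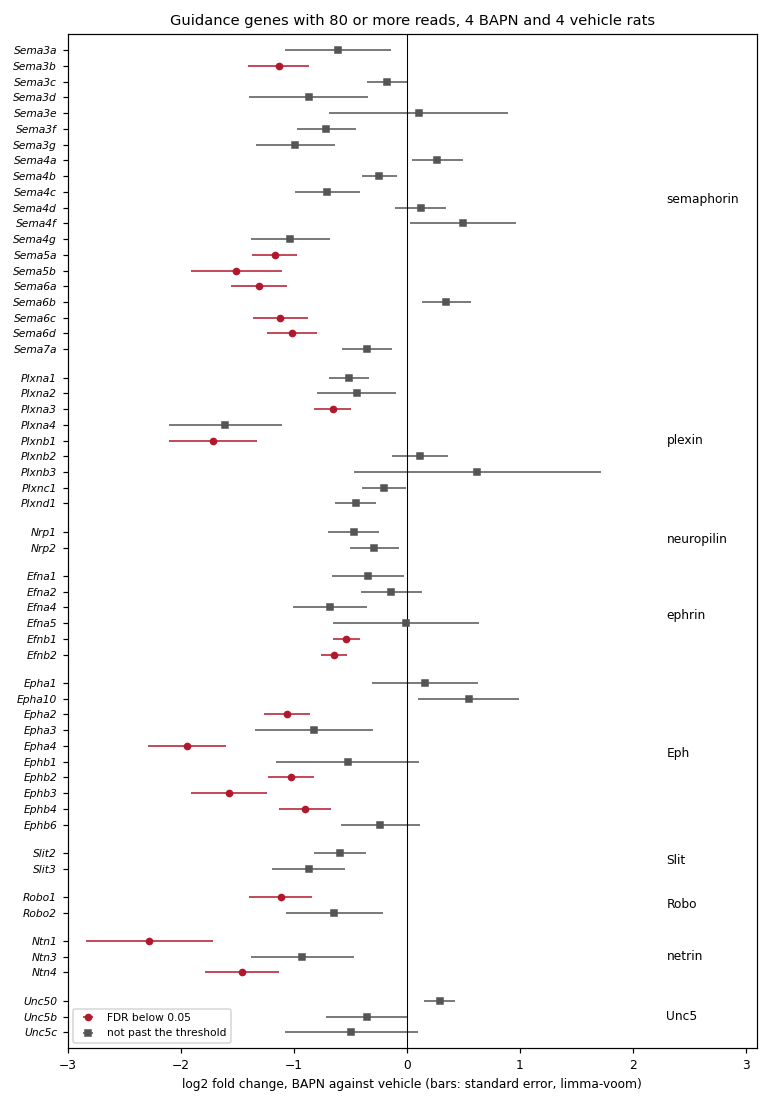
Log2 fold change of BAPN against vehicle (x axis) for each of the 57 tested members (y axis, grouped by family), with red circles for members at an FDR below 0.05 and grey squares for the rest. Bars extend 1 standard error on each side, taken from a separate limma-voom fit. All 18 red circles lie to the left of 0, and the points extend from -2.28 to 0.63.

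The size of the called set depended on single libraries. Without BAPN 3, 6 members were called, all among the 18, and without BAPN 4 there were 8, of which 7 were among the 18 and the other was Nrp1. There were 5 without Vehicle 1, 11 without Vehicle 3 and 10 without Vehicle 4, all among the 18. The share of all tested genes that was called fell as well, from 12.1% to 3.13% and 4.45% on leaving out BAPN 3 or BAPN 4. It fell to 2.22%, 6.81% and 5.94% on leaving out Vehicle 1, Vehicle 3 or Vehicle 4. Efnb2, Epha2, Epha4 and Sema5a were called in each of the 8 fits that left out 1 library. All 18 stayed lower with BAPN in each of the 20 alternative analyses. With sex as a covariate, 9 members were called (Efnb2, Epha2, Epha4, Ephb2, Ntn1, Ntn4, Plxnb1, Sema5a and Sema6a), and in the females alone (3 BAPN and 2 vehicle rats) 1 was called, Ntn4 (FDR 0.0474). Of all tested genes, 4.68% were called with sex as a covariate and 0.636% in the females alone. At an unadjusted p below 0.05 there were 25 members in the females alone, against 27 with all rats.

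**Figure D2:**
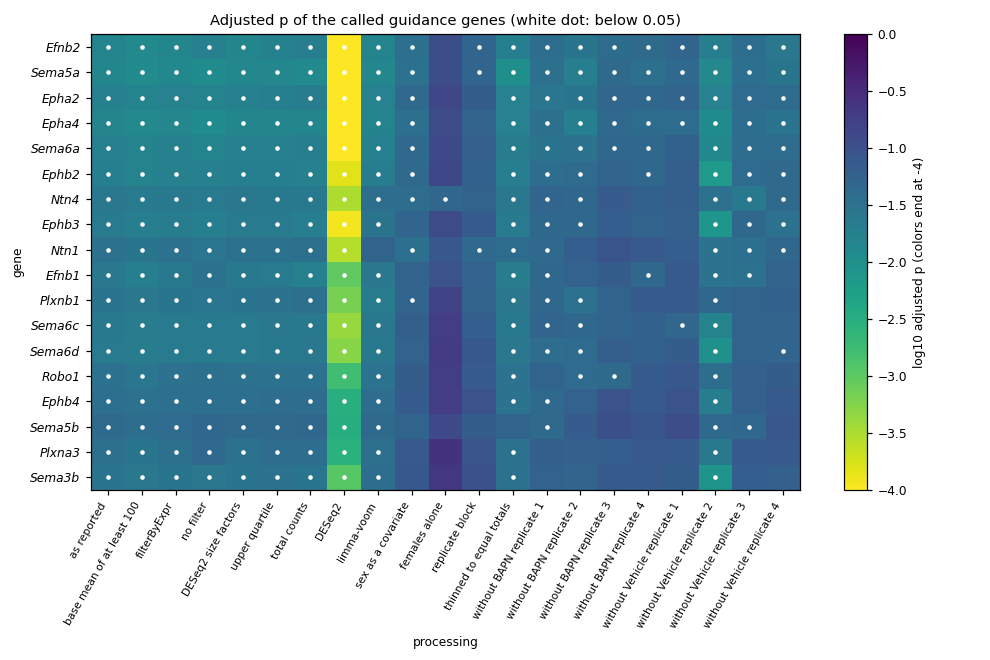
Adjusted p (colour, log10 scale) of the 18 called members (rows) in the analysis as reported and in the 20 alternatives (columns), with a white dot where it is below 0.05. Efnb2, Sema5a, Epha2 and Epha4 carry a dot in all 8 columns that leave out 1 library, while the column for females alone has 1 dot, for Ntn4.

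Among ligands, 10 of 31 tested were called lower, with a median log2 fold change of -0.68. Semaphorins made up 20 of these ligands, 6 of which were called lower. The secreted class 3 contributed 1 call among 7 members, Sema3b, a neuropilin ligand first studied as a tumour suppressor gene (ENSRNOG00000016512). Sema3b measured 21.8, 23.3, 20.6 and 16.5 CPM in BAPN 1 to 4 and 39.3, 23.8, 54.1 and 63.1 CPM in Vehicle 1 to 4. The highest BAPN value lay just under Vehicle 2, the lowest vehicle rat, and the other vehicle rats were well above both. Its means were 20.6 ± 2.90 against 45.1 ± 17.2 CPM (log2 fold change -1.13, SE 0.27, FDR 0.0288). Sema3b kept its call without Vehicle 2, but lost it when any other library was left out (FDR 0.0501 to 0.0744).

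Both class 5 semaphorins were called lower; these are transmembrane proteins with thrombospondin repeats outside the cell. Sema5a (ENSRNOG00000011977) was at 13.3, 20.5, 11.9 and 17.6 CPM in BAPN 1 to 4, and at 33.1, 28.1, 36.4 and 44.6 CPM in Vehicle 1 to 4. The groups were clearly apart, and the means were 15.8 ± 3.93 against 35.5 ± 6.95 CPM (log2 fold change -1.17, SE 0.20, FDR 0.0145). Sema5a kept its call without any 1 library (FDR up to 0.0426). Sema5b (ENSRNOG00000002238) was found at 3.55, 2.67, 1.63 and 1.26 CPM in BAPN 1 to 4 and at 9.49, 4.97, 3.91 and 7.61 CPM in Vehicle 1 to 4. Its groups were close, since Vehicle 3 lay just above BAPN 1. The means were 2.28 ± 1.03 against 6.50 ± 2.53 CPM (log2 fold change -1.51, SE 0.40, FDR 0.0411), and when libraries were thinned to equal totals it was not called. Sema5b kept its call without BAPN 1, Vehicle 2 and Vehicle 3, but lost it when any other library was left out (FDR 0.0678 to 0.114).

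In class 6, whose transmembrane members bind class A plexins, 3 of 4 were called lower and Sema6b was not. Sema6a (ENSRNOG00000004033) had 13.1, 12.9, 7.11 and 8.82 CPM in BAPN 1 to 4, against 27.8, 17.9, 24.04 and 34.1 CPM in Vehicle 1 to 4. All vehicle rats were higher, and Vehicle 2 was the nearest to the BAPN group. The means of Sema6a were 10.5 ± 2.99 against 25.97 ± 6.77 CPM (log2 fold change -1.31, SE 0.25, FDR 0.0180). Sema6a was not called without Vehicle 1 (FDR 0.0580). Sema6c (ENSRNOG00000021101) had 7.11, 8.11, 8.86 and 6.05 CPM in BAPN 1 to 4, against 12.4, 11.4, 21.8 and 19.7 CPM in Vehicle 1 to 4, with both male vehicle rats highest. Its means were 7.53 ± 1.22 against 16.3 ± 5.21 CPM (log2 fold change -1.12, SE 0.24, FDR 0.0237). Sema6c was not called without BAPN 3 (FDR 0.0514), BAPN 4 (FDR 0.0581), Vehicle 3 (FDR 0.0510) and Vehicle 4 (FDR 0.0526). For Sema6d (ENSRNOG00000004812), a ligand of plexin-A1, there were 17.5, 17.3, 11.3 and 13.4 CPM in BAPN 1 to 4 and 32.03, 19.3, 34.8 and 33.98 CPM in Vehicle 1 to 4. Vehicle 2 lay near the BAPN rats and the other 3 vehicle rats were close together. The means were 14.9 ± 3.03 against 30.02 ± 7.27 CPM (log2 fold change -1.01, SE 0.22, FDR 0.0234). Sema6d was not called without BAPN 3 (FDR 0.0620), BAPN 4 (FDR 0.0578), Vehicle 1 (FDR 0.0672) and Vehicle 3 (FDR 0.0525). Sema6b, by contrast, measured 30.3 ± 8.61 against 23.7 ± 2.02 CPM (log2 fold change 0.35, SE 0.22, FDR 0.248).

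Grouped after these values had been seen, classes 5 and 6 held 5 calls among 6 tested members, with a median log2 fold change of -1.14. Classes 3, 4 and 7 held 1 among 14, with a median of -0.48, and no test was made of this difference. Of all genes, 6.56% were called lower. At an unadjusted p below 0.05 the counts were 5 of 6 and 5 of 14, all lower, and DESeq2 called 5 of 6 and 4 of 14. Of class 4, transmembrane ligands that include the plexin-B1 ligand Sema4d, 0 of 6 were called by edgeR, and the median was -0.06. At an unadjusted p below 0.05 there were 2 (33.3%), all lower, beside 31.6% of all genes in either direction and 16.1% lower.

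**Figure D3:**
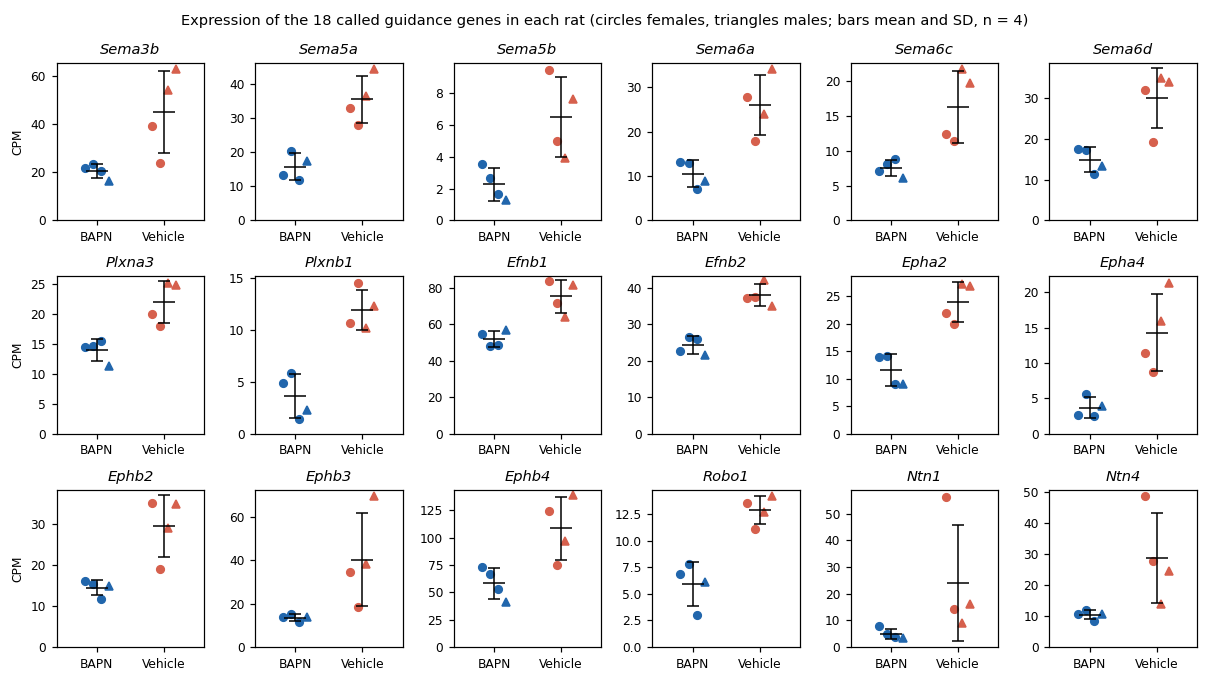
CPM (linear y axis from 0) in each rat for the 18 members called lower, 1 panel per gene, with BAPN rats in blue, vehicle rats in red, circles for females, triangles for males and bars for the mean and SD (n = 4). In every panel the 4 BAPN points lie below the 4 vehicle points.

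Ephrins are described by class, and no test was made between the classes. Of the 4 tested ephrin-A ligands, which are anchored to the membrane by a lipid, 0 were called or had an unadjusted p below 0.05, and their median was -0.24. Efna4, named after its values had been seen, had a log2 fold change of -0.68 (SE 0.32, FDR 0.182), further from 0 than those of Efnb1 and Efnb2. Both tested ephrin-B ligands, which span the membrane, were called lower. Efnb1 (ENSRNOG00000006877) was measured at 54.6, 47.9, 48.6 and 56.7 CPM in BAPN 1 to 4 and 83.8, 71.9, 64.1 and 81.4 CPM in Vehicle 1 to 4. The BAPN rats lay within a narrow band under Vehicle 3, and the means were 51.96 ± 4.38 against 75.3 ± 9.06 CPM (log2 fold change -0.54, SE 0.12, FDR 0.0249). Efnb1 was not called without BAPN 2 (FDR 0.0556), BAPN 3 (FDR 0.0660), Vehicle 1 (FDR 0.0735) and Vehicle 4 (FDR 0.0537). Efnb2 (ENSRNOG00000014648), the ephrin that marks arteries and the main partner of EphB4, was at 22.8, 26.6, 26.04 and 21.7 CPM in BAPN 1 to 4 and 37.2, 37.5, 42.1 and 35.1 CPM in Vehicle 1 to 4. Rats of 1 group differed little, and the 2 groups were separated by a gap larger than either range. The means of Efnb2 were 24.3 ± 2.42 against 37.96 ± 2.96 CPM (log2 fold change -0.65, SE 0.12, FDR 0.0155). Efnb2 kept its call without any 1 library (FDR up to 0.0489).

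The netrins had the lowest median log2 fold change of the 9 families (-1.46), and the vehicle rats differed widely for Ntn1 and Ntn4. All 3 tested netrins had the 4 BAPN rats below the 4 vehicle rats, and 2 were called. Ntn1 (ENSRNOG00000003947), the classical axon attractant, measured 7.84, 4.76, 3.63 and 3.46 CPM in BAPN 1 to 4 and 56.1, 14.4, 8.86 and 16.3 CPM in Vehicle 1 to 4. Vehicle 1 was far above the other vehicle rats, while Vehicle 3 was only just above BAPN 1. The means were 4.92 ± 2.03 against 23.9 ± 21.7 CPM (log2 fold change -2.28, SE 0.56, FDR 0.0317), and the log2 fold change was -1.42 without Vehicle 1. Ntn1 was not called without BAPN 2 (FDR 0.0646), BAPN 3 (FDR 0.0901), BAPN 4 (FDR 0.0765) and Vehicle 1 (FDR 0.0643). It was not called by limma-voom (FDR 0.0516). Ntn4 (ENSRNOG00000005573), a netrin of basement membranes, was at 10.8, 11.8, 8.39 and 10.8 CPM in BAPN 1 to 4 and 48.6, 27.8, 13.9 and 24.5 CPM in Vehicle 1 to 4. The BAPN rats were tightly grouped and the vehicle rats spread from just above them to far above. Its means were 10.4 ± 1.44 against 28.7 ± 14.5 CPM (log2 fold change -1.46, SE 0.33, FDR 0.0250). Ntn4 was not called without BAPN 3 (FDR 0.0700), BAPN 4 (FDR 0.0566) and Vehicle 1 (FDR 0.0605). Ntn3 (ENSRNOG00000006970) had values of 0.995, 2.26, 0.621 and 2.07 CPM in BAPN 1 to 4 and 2.59, 2.46, 2.29 and 3.97 CPM in Vehicle 1 to 4. The groups met closely at BAPN 2 and Vehicle 3, and Ntn3 was not called (1.49 ± 0.802 against 2.83 ± 0.771 CPM, log2 fold change -0.92, SE 0.46, FDR 0.198).

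Of the 3 Slit genes, Slit1 was under the read minimum and 0 of the other 2 were called by edgeR, although both had an unadjusted p below 0.05. Slit2 was at 30.7 ± 7.89 against 46.2 ± 12.8 CPM (log2 fold change -0.59, SE 0.23, FDR 0.121) and Slit3 at 141 ± 38.6 against 258 ± 109.7 CPM (log2 fold change -0.87, SE 0.33, FDR 0.0997). The Slit3 values were 183, 158, 93.04 and 130.2 CPM in BAPN 1 to 4 and 375, 203, 133 and 319 CPM in Vehicle 1 to 4, with Vehicle 3 inside the BAPN range. DESeq2 called Slit3 lower (FDR 0.035).

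Among receptors, leaving out Unc50, 8 of 25 tested were called lower, with a median of -0.51, and 5 of these 8 were Eph receptors. Among the others, 2 of 9 plexins and 1 of 2 tested Robo genes were called. Of the EphA receptors, 2 of 5 tested were called. Epha2 (ENSRNOG00000009222), a receptor of ephrin-A1 found on endothelial and epithelial cells, was measured at 14, 14.1, 8.97 and 9.03 CPM in BAPN 1 to 4 and 21.9, 19.9, 27.2 and 26.8 CPM in Vehicle 1 to 4. The gap between BAPN 2 and Vehicle 2 was wide, and the means were 11.5 ± 2.90 against 23.98 ± 3.63 CPM (log2 fold change -1.06, SE 0.20, FDR 0.0176). Epha2 kept its call without any 1 library (FDR up to 0.0488). Epha4 (ENSRNOG00000013213), which binds ephrins of both classes, was at 2.72, 5.63, 2.53 and 3.96 CPM in BAPN 1 to 4 and 11.4, 8.72, 15.9 and 21.3 CPM in Vehicle 1 to 4. Its vehicle values varied more than its BAPN values but all lay above them, and the means were 3.71 ± 1.43 against 14.3 ± 5.52 CPM (log2 fold change -1.95, SE 0.35, FDR 0.0149). Epha4 kept its call without any 1 library (FDR up to 0.0435).

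Of the 5 EphB receptors, all tested, 3 were called. Ephb2 (ENSRNOG00000012531) had values of 16.1, 15.5, 11.7 and 15 CPM in BAPN 1 to 4 and 35.3, 19.2, 29.1 and 34.97 CPM in Vehicle 1 to 4. Vehicle 2 was the lowest vehicle rat and was close to BAPN 1. The means were 14.6 ± 1.95 against 29.6 ± 7.52 CPM (log2 fold change -1.02, SE 0.20, FDR 0.0190). Ephb2 was not called without BAPN 3 (FDR 0.0537) and Vehicle 1 (FDR 0.0607). Ephb3 (ENSRNOG00000031801), like Ephb2 a receptor of ephrin-B ligands, had 14.1, 14.99, 11.3 and 13.7 CPM in BAPN 1 to 4 and 34.7, 18.5, 38.3 and 69.4 CPM in Vehicle 1 to 4. The BAPN rats were nearly level, Vehicle 2 was a little above them, and Vehicle 4 was the highest by far. The means were 13.5 ± 1.56 against 40.2 ± 21.3 CPM (log2 fold change -1.57, SE 0.33, FDR 0.0222). Ephb3 was not called without BAPN 3 (FDR 0.0639), BAPN 4 (FDR 0.0534) and Vehicle 1 (FDR 0.0583). Ephb4 (ENSRNOG00000045952), the venous partner of ephrin-B2, was at 72.9, 66.7, 52.7 and 40.9 CPM in BAPN 1 to 4 and 124, 74.6, 96.8 and 139 CPM in Vehicle 1 to 4. BAPN 1 nearly reached Vehicle 2, and both groups were broad. The means were 58.3 ± 14.4 against 109 ± 28.6 CPM (log2 fold change -0.90, SE 0.23, FDR 0.0352). Ephb4 kept its call without BAPN 1 and Vehicle 2, but lost it when any other library was left out (FDR 0.0555 to 0.0961).

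Plexins are the signalling receptors of semaphorins. Plxna3 (ENSRNOG00000060464), a partner of neuropilins for class 3 ligands, was at 14.4, 14.5, 15.5 and 11.3 CPM in BAPN 1 to 4 and 20, 17.9, 25.04 and 24.8 CPM in Vehicle 1 to 4. The separation was small but held for every rat, and the means were 13.9 ± 1.83 against 21.9 ± 3.55 CPM (log2 fold change -0.65, SE 0.16, FDR 0.0331). Plxna3 kept its call without Vehicle 2, but lost it when any other library was left out (FDR 0.0590 to 0.0759). Plxnb1 (ENSRNOG00000029510), the receptor of Sema4d, measured 4.94, 5.86, 1.40 and 2.32 CPM in BAPN 1 to 4 and 10.7, 14.5, 10.2 and 12.3 CPM in Vehicle 1 to 4. The lowest BAPN values were in BAPN 3 and 4, and the vehicle rats were all near each other. The means were 3.63 ± 2.11 against 11.9 ± 1.93 CPM (log2 fold change -1.72, SE 0.39, FDR 0.0294). Plxnb1 kept its call without BAPN 1, BAPN 2 and Vehicle 2, but lost it when any other library was left out (FDR 0.0513 to 0.0710). Its ligand Sema4d was at 24.7 ± 3.75 against 22.7 ± 8.39 CPM (log2 fold change 0.12, SE 0.22, FDR 0.754), with overlapping groups.

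Robo1 (ENSRNOG00000029614), a Slit receptor, had 6.82, 7.85, 3.04 and 6.07 CPM in BAPN 1 to 4 and 13.6, 11.1, 12.7 and 14.2 CPM in Vehicle 1 to 4. The vehicle rats were within a narrow range above all BAPN rats. The means were 5.95 ± 2.07 against 12.9 ± 1.32 CPM (log2 fold change -1.11, SE 0.28, FDR 0.0312). Robo1 kept its call without BAPN 2, BAPN 3 and Vehicle 2, but lost it when any other library was left out (FDR 0.0519 to 0.0814). Robo4, the Robo of endothelium, had 1 read in all 8 libraries together, and so had no fold change or FDR. Why its count was so low was not tested.

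**Figure D4:**
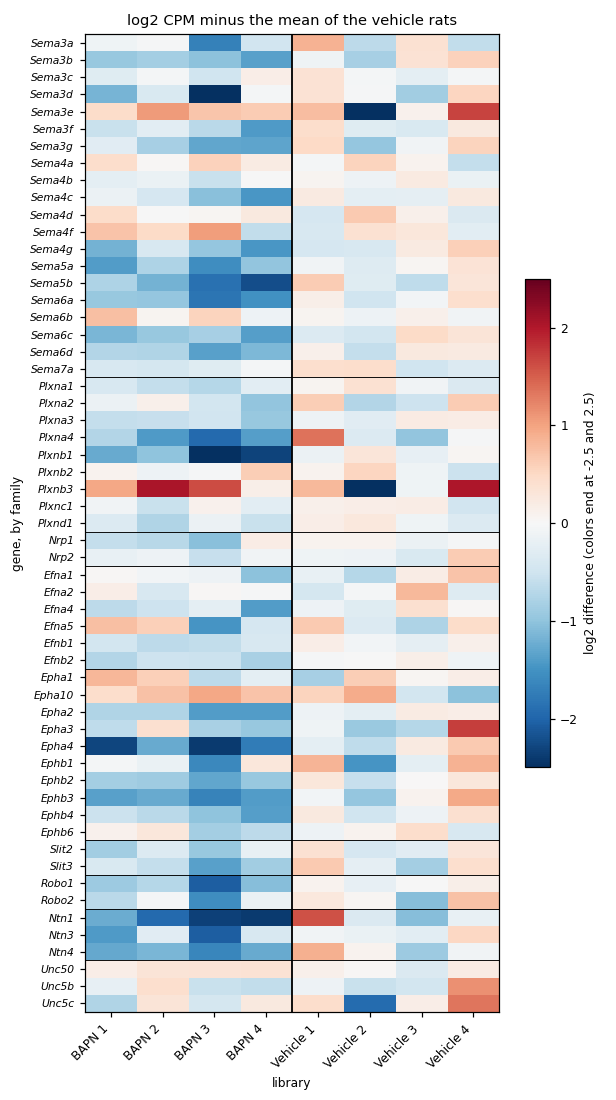
Log2 CPM of the 57 tested members (rows, grouped by family) in each of the 8 libraries (columns), as the difference from the mean of the 4 vehicle libraries, with blue for lower and red for higher and the colours ending at -2.5 and 2.5. Blue is widespread in the BAPN columns, where the median over the members was -0.46, -0.40, -0.82 and -0.61 in BAPN 1 to 4, against 0.12, -0.25, -0.09 and 0.22 in Vehicle 1 to 4.

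Rats within a group differed in the same direction for many members. Of the 18 called members, BAPN 3 was the lowest BAPN library for 10 and BAPN 4 for 7. Vehicle 2 was the lowest vehicle library for 12, and Vehicle 4 the highest for 7. The median deviation of the tested members from the vehicle mean was furthest from 0 in BAPN 3 (-0.82).

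Members with known vascular roles that were not called are given next, whatever their direction. Nrp1 (ENSRNOG00000010744), co-receptor of class 3 semaphorins and of vascular endothelial growth factor, was at 250.4, 236, 183 and 430.3 CPM in BAPN 1 to 4 and 402, 405, 341 and 372 CPM in Vehicle 1 to 4. BAPN 4, the male, was the highest of all 8 rats, and the other 3 BAPN rats were below every vehicle rat. Nrp1 was not called (275 ± 108 against 380.1 ± 29.9 CPM, log2 fold change -0.47, SE 0.23, FDR 0.211), but was called without BAPN 4 (log2 fold change -0.77, FDR 0.04). Nrp2, which binds Sema3f and lymphatic growth factors, was at 146 ± 21.5 against 178 ± 60.4 CPM (log2 fold change -0.29, SE 0.22, FDR 0.400). With 1 library left out, the log2 fold change of Nrp2 lay between -0.41 (without Vehicle 3) and -0.024 (without Vehicle 4). Plxnd1, the endothelial receptor of Sema3e, was at 446 ± 79.2 against 611 ± 114 CPM (log2 fold change -0.45, SE 0.18, FDR 0.132), with BAPN 3 between Vehicle 4 and Vehicle 3.

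The other plexins of the vascular list overlapped between groups. Plxna2 was at 23.5 ± 7.34 against 31.9 ± 15.1 CPM (log2 fold change -0.44, SE 0.35, FDR 0.412) and Plxnc1, the receptor of Sema7a, at 23.01 ± 4.39 against 26.4 ± 5.14 CPM (log2 fold change -0.20, SE 0.19, FDR 0.492). Plxnb2, a plexin widely expressed outside the nervous system, was at 806 ± 202 against 743 ± 229 CPM (log2 fold change 0.12, SE 0.25, FDR 0.776). For Sema7a, a membrane-anchored ligand on leukocytes, the means were 51.1 ± 6.52 against 65.02 ± 21.6 CPM (log2 fold change -0.35, SE 0.22, FDR 0.310).

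None of the other class 3 ligands of the same list was called by edgeR, although Sema3f and Sema3g had an unadjusted p below 0.05 and were called lower by DESeq2. Sema3f, a Nrp2 ligand, was at 35.9 ± 10.8 against 58.7 ± 16.3 CPM (log2 fold change -0.71, SE 0.26, FDR 0.0948), and Sema3g, a ligand found in arterial endothelium, at 11 ± 4.01 against 21.8 ± 9.04 CPM (log2 fold change -0.99, SE 0.35, FDR 0.0897). Without Vehicle 2, Sema3g was called lower (log2 fold change -1.22, FDR 0.0287). Sema3a, which repels axons and endothelial cells through Nrp1, was at 3.39 ± 1.43 against 5.16 ± 2.70 CPM (log2 fold change -0.61, SE 0.47, FDR 0.387). With 1 library left out, the log2 fold change of Sema3a lay between -0.80 (without Vehicle 2) and -0.25 (without Vehicle 1). Sema3c was at 139.6 ± 28.1 against 157 ± 29.3 CPM (log2 fold change -0.17, SE 0.18, FDR 0.534). Sema3e, the Plxnd1 ligand, was low in all rats, with 1 read in Vehicle 2, at 0.991 ± 0.191 against 0.919 ± 0.814 CPM (log2 fold change 0.11, SE 0.79, FDR 0.941), and its direction reversed when libraries were thinned to equal totals or when BAPN 2, Vehicle 2 or Vehicle 3 was left out.

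A ligand of Epha2 and a netrin receptor complete the list of vascular members. Efna1, the ephrin of Epha2, was at 16.6 ± 4.72 against 20.97 ± 8.62 CPM (log2 fold change -0.34, SE 0.32, FDR 0.483), and BAPN 4 was lower than the other 3 BAPN rats. With 1 library left out, the log2 fold change of Efna1 lay between -0.53 (without Vehicle 2) and -0.058 (without Vehicle 4). Unc5b, the vascular netrin receptor, was at 51.1 ± 18.4 against 65.2 ± 41.4 CPM (log2 fold change -0.35, SE 0.36, FDR 0.564), with Vehicle 4 far above the other vehicle rats. Without Vehicle 4 the direction of Unc5b was reversed, at a log2 fold change of 0.19.

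DESeq2 called 6 members lower that edgeR did not, namely Sema4g, Plxna1, Plxna4, Sema3f, Slit3 and Sema3g (DESeq2 FDR 0.0119 to 0.0446). Of these, Sema4g was at 2.08 ± 0.706 against 4.25 ± 1.52 CPM (log2 fold change -1.03, SE 0.35, FDR 0.0852), Plxna1 at 206 ± 28.8 against 294 ± 62.8 CPM (log2 fold change -0.51, SE 0.17, FDR 0.0828) and Plxna4, a receptor for Sema3a and class 6 semaphorins, at 2.10 ± 0.750 against 6.39 ± 4.93 CPM (log2 fold change -1.60, SE 0.50, FDR 0.0654). Plxna4 was also called when libraries were thinned (FDR 0.0493). Of the 10 members that were higher with BAPN, Unc50 had the lowest FDR (37.03 ± 2.18 against 30.3 ± 4.98 CPM, log2 fold change 0.29, SE 0.14, FDR 0.179). Sema4g, Plxna1, Plxna4, Unc50 and Sema6b were named after their values had been seen. The remaining 15 tested members had log2 fold changes from -0.87 to 0.63 and FDR values from 0.117 to 0.995, with 10 lower and 5 higher. The 12 untested members had at most 79 reads over all libraries, and Ntn5 had 0.

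Of 70 other genes of these pathways, listed for their roles as co-receptors, ligands outside the name rule or intracellular effectors, 66 were tested. Of the 66, 9 (13.6%) were called lower and 1 was called higher, and the median log2 fold change was -0.32. In either direction 15.2% of the effectors were called, near the 12.1% of all tested genes, while 6.56% of all genes were called lower. Rgma, a ligand of the netrin receptor neogenin, had the smallest p of the list, at 48.3, 43.8, 35.8 and 43.3 CPM in BAPN 1 to 4 and 90.9, 77.3, 78.8 and 85.4 CPM in Vehicle 1 to 4. The groups were far apart, with means of 42.8 ± 5.18 against 83.1 ± 6.27 CPM (log2 fold change -0.96, SE 0.12, FDR 0.00516). Its relative Rgmb, a co-receptor for bone morphogenetic proteins as well, was at 9.36 ± 1.07 against 15.1 ± 1.12 CPM (log2 fold change -0.69, SE 0.15, FDR 0.0223).

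Effectors that turn receptor signals into changes of the cytoskeleton made up the rest. Trio, an exchange factor downstream of netrin receptors, was at 47.2 ± 8.47 against 78.1 ± 5.61 CPM (log2 fold change -0.73, SE 0.14, FDR 0.0187). Arhgef12, an exchange factor bound by class B plexins, was at 38.7 ± 6.70 against 72.5 ± 19.3 CPM (log2 fold change -0.90, SE 0.20, FDR 0.0261), and Arhgef15, an endothelial exchange factor linked to Eph receptors, at 11.8 ± 3.24 against 24.5 ± 4.997 CPM (log2 fold change -1.05, SE 0.25, FDR 0.0275). Mical3, of a family of actin-oxidizing enzymes that bind plexins, was at 17.1 ± 5.40 against 41.1 ± 10.1 CPM (log2 fold change -1.27, SE 0.26, FDR 0.0202). Rras, a small GTPase inactivated by plexins, was at 64.4 ± 6.37 against 95.5 ± 14.6 CPM (log2 fold change -0.57, SE 0.13, FDR 0.0283), and Dpysl2, which transmits Sema3a signals to microtubules, at 104 ± 20.3 against 167 ± 24.3 CPM (log2 fold change -0.68, SE 0.17, FDR 0.0334). The adaptor Nck2 was also lower (log2 fold change -0.60, SE 0.15, FDR 0.0352), while its relative Nck1 was the 1 gene called higher (log2 fold change 0.43, SE 0.12, FDR 0.0474); this pair was named after their values had been seen. The number of effectors called, 10 with all libraries, was 3 when BAPN 3, BAPN 4 or Vehicle 4 was left out, 2 when Vehicle 1 was and 6 when Vehicle 3 was.

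Markers of the cell types of the vein wall were also compared between the groups. Of all 14930 tested genes, 6.56% were called lower. Smooth muscle markers were called lower for 6 of 10 genes (median -1.10; summed level 2058 to 5098 CPM with BAPN and 4047 to 7144 with vehicle). Pericyte markers were called lower for 4 of 7 (median -0.86; 558.7 to 823 against 909 to 1945 CPM, without overlap, also when Pdgfrb, the most abundant, was left out). Endothelial markers were called lower for 4 of 15 (median -0.60; 888 to 1321 against 1395 to 2399 CPM, without overlap, also without Eng), and fibroblast markers for 3 of 10 (median -0.54; 3526 to 5108 against 3881 to 7194 CPM). Lymphatic endothelial markers gave 1 call lower among 6, Prox1, and 474 to 595 against 423 to 839 CPM.

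Of the macrophage markers, 1 of 12 was called higher, Aif1, beside 832 of all 14930 tested genes called higher. The median was 0.56, with a summed level of 29060 to 42190 against 6258 to 23670 CPM. Lyz2 made up most of that sum (24100 to 37920 against 3819 to 19420 CPM, FDR 0.0837, not called), and without it the other markers summed to 3858 to 4955 against 2439 to 4250 CPM, with overlap. T cell markers gave 2 of 9 called higher, Cd2 and Cd8a (median 1.03; 385.5 to 471 against 307 to 518 CPM). Cd4 made up most of that sum, and without it the sum was 59.8 to 147.8 against 31.5 to 65.3 CPM, with overlap at BAPN 4. B and plasma cell markers gave 1 of 8 called higher, Mzb1 (median 2.55; 124 to 356 against 126 to 165 CPM). Without Xbp1, the most abundant, their sum was 155.5, 195.4 and 221.4 CPM in BAPN 1 to 3 and 7.19 CPM in BAPN 4, against 12.1 to 37.9 CPM in the vehicle rats, so BAPN 4 lay below every vehicle rat. Mzb1 was likewise at 15.1, 27.8 and 41.4 CPM in BAPN 1 to 3 and at 0.169 CPM in BAPN 4, against 0.185 to 1.75 CPM. Schwann cell and nerve markers had 0 of 11 called by edgeR (median 0.07, 58.6 to 298.5 against 79.2 to 141 CPM). Of these 11, 3 had an unadjusted p below 0.05 (27.3%), 1 higher and 2 lower. Of all tested genes, 31.6% had such a p in either direction and 16.1% were lower. Adipocyte markers had 0 of 8 called by edgeR and 4 with such a p, all lower with BAPN (median -0.97). Their summed level, 1386 to 3166 against 707 to 2069 CPM, was mostly Fabp4, and without Fabp4 it was 217.7 to 372 against 267 to 753 CPM. Skeletal muscle markers had 0 of 5 called by edgeR and 2 with such a p, all lower (median -1.06, 16.3 to 29.9 against 16.9 to 69.5 CPM). Keratinocyte markers had 1 of 7 called higher, Dsg3 (median 1.79, 9.32 to 38.2 against 8.88 to 18.2 CPM). Dsg3 was at 19.2 and 13.7 CPM in BAPN 1 and 2, at 0.299 and 0.084 CPM in BAPN 3 and 4 and at no more than 0.099 CPM in the vehicle rats. None of the markers listed in the files was at 0 reads over the 8 libraries, and Pecam1, Foxd3, Trac, Myh1, Myh2, Ttn and Trp63 were not analysed here. The part of these cell types in the lower levels of the guidance genes was not tested.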

How the data were processed

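Total RNA from the outflow vein of 8 rats was depleted of ribosomal RNA and sequenced as stranded libraries. Per the submitters' processing notes, reads were handled with bcl2fastq 2.17, Trim Galore and STAR. The counter, its strand setting and the genome build are not given in the sources used here, so overlapping and antisense genes are uncertain. The deposited values are raw whole-number counts per gene, 1 file per rat. Groups, replicate numbers and sex came from the labels.

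Genes with 80 or more reads over the 8 libraries (14930 of 32623) were fitted with edgeR 4.0.16 (R 4.3.3): TMM normalization, treatment as the only term, quasi-likelihood F test, p-values adjusted by Benjamini-Hochberg across the whole table, FDR threshold 0.05. Standard errors came from limma-voom (limma 3.58.1). The script was tested on simulated data. DESeq2 1.42.0, other filters and normalizations, sex as a covariate, females alone, a replicate block, thinning and leaving out each library were tried as alternatives. No pair of libraries within a group had counts that agreed within sampling noise.

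Named genes are the members called, those not called whose groups did not overlap, a list of members with vascular roles, and at most 8 effectors with the smallest p among those called. Genes named outside this rule are identified as such in the text. The members, lists and tests were chosen with earlier results of these data known. Promoters are RefSeq sequences of build GRCr8, matched by symbol. Replicate numbers mark no shared litter, batch or day in the labels. CPM precision rests on at least 20.3 reads for 1 CPM, which covers counting error alone.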

Additional observations from a re-analysis of the deposited data

Results flagged for a closer look

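In 84 groups of 4 rats (both groups of 42 named guidance genes), the highest or lowest library was compared with the range of its group on the log2 CPM scale, and 3 groups had a library whose gap to the nearest other took more of that range than Dixon's critical value for 4 samples allows. Chance alone flags about 1 in 20 groups. BAPN 4 was low for Efna1, with 9.58 CPM (gap 0.856 of the range). Vehicle 4 was low for Plxnc1, with 18.8 CPM (gap 0.925). Vehicle 2 was low for Sema6d, with 19.3 CPM (gap 0.859).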

How the results depend on the processing

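The 18 members called stayed lower in all 20 alternatives, and the median log2 fold change of the members stayed below 0. The filters, normalizations, limma-voom and thinning changed no count of calls by more than 1.5 times. DESeq2 called 3389 of all genes and 20 effectors (main analysis 1811 and 10). With sex as a covariate, 698 genes, 9 members and 4 effectors were called. In females alone these counts were 95, 1 and 0 by edgeR. At an unadjusted p below 0.05 there were 25 members and 16 effectors in females alone, against 27 and 26 in the main analysis. The share of all genes at that p was not counted in females alone. With the replicate number as a block, 356 genes, 3 members (Efnb2, Sema5a and Ntn1) and 3 effectors were called; the correlations of same-numbered libraries were 0.0291, -0.135, 0.146 and -0.0855, not every library correlated best with its own number, and the numbers were not taken as pairs. Leaving out 1 library gave 331 to 2121 genes, 5 to 19 members and 2 to 11 effectors, with the fewest of each without Vehicle 1 and the most without Vehicle 2. The cause of these changes was not tested, beyond the smaller number of rats where rats were left out.

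Over the named genes and all alternatives, 845 values kept their direction and their side of the threshold, 171 lost a call, 9 gained one, and 12 reversed, in 5 genes that were not called. In females alone, the log2 fold change was 0.37 for Efna1, -0.35 for Plxnb2, -0.043 for Sema4d and 0.27 for Unc5b. Thinning gave -0.15 for Sema3e. Leaving out 1 library reversed Plxnb2 (-0.069 without BAPN 4 to 0.33; -0.033 without Vehicle 4), Sema3e (-0.28 without Vehicle 2 to 0.80; -0.041 without BAPN 2, -0.040 without Vehicle 3), Sema4d (-0.011 without Vehicle 1 to 0.39) and Unc5b (-0.63 to 0.19, the latter without Vehicle 4). Depth limits members with few reads, such as Sema3e, with 1 read in Vehicle 2.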
